A study of Mus musculus with 36 samples.

Results

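The basement membrane is represented here by 30 genes: 10 laminin chains, the 6 collagen IV chains, the nidogens Nid1 and Nid2, the large proteoglycans perlecan and agrin, the collagens Col15a1 and Col18a1, and 10 further matrix proteins. The genes were taken by symbol, matched to the Ensembl identifiers of the count table, and all 30 were found among its 52636 genes. After low counts were filtered, 28 of the 30 remained among the 15330 genes tested, and Lama1 and Lamb3 did not. RNA came from cells sorted by fluorescence from diaphragm, pectoralis, forelimb and hindlimb muscles of S100β-GFP;NG2-dsRed mice. The cell types were NG2DsRed+/S100GFP+ cells (9 libraries), which the study takes as perisynaptic Schwann cells (PSCs), the non-myelinating glia that cover the neuromuscular junction, S100GFP+ cells (8 libraries), which it takes as the other Schwann cells, and NG2DsRed+ cells (10 libraries), which include pericytes. No group was treated, every animal carried both transgenes, and 1 mouse gave 1 replicate. The study's methods give an age of P15 to P21. In the labels the lower age is always 15 days, and the upper age rises by 1 day per library number from 21 days until it reaches 46 days. The labels therefore do not settle the age of single animals.

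A basement membrane is a thin sheet of matrix that surrounds Schwann cells, muscle fibres and blood vessels. Laminins, each a trimer of an alpha, a beta and a gamma chain, assemble on receptors such as dystroglycan and integrins, collagen IV trimers form a second network, and nidogens and perlecan link both. At the neuromuscular junction this sheet runs through the synaptic cleft, and agrin held in it drives the clustering of acetylcholine receptors through Lrp4 and MuSK.

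The sort rests on promoters, not on surface proteins: GFP marks cells in which the S100 promoter was active and dsRed marks cells in which the NG2 (Cspg4) promoter was active. Marker genes were therefore examined before the members, on the CPM scale, which divides each count by the size of its library. Sox10, the transcription factor that defines the Schwann cell lineage, was 379 to 703 CPM in PSCs, 5.57 to 38.8 CPM in S100GFP+ cells and 1.46 to 9.79 CPM in NG2DsRed+ cells. Erbb3, the neuregulin receptor subunit of Schwann cells, was 165 to 604 CPM, 5.92 to 30.4 CPM and 1.22 to 4.96 CPM in the same order. The sum of 5 myelin genes was 2413 to 3284 CPM in PSCs, 1439 to 3444 CPM in S100GFP+ cells and 243 to 985 CPM in NG2DsRed+ cells. The sum of 7 fibroblast genes was 18940 to 43111 CPM in S100GFP+ cells against 757 to 2887 CPM in PSCs, and 6 macrophage genes summed to 260 to 2189 CPM against 2.07 to 14.2 CPM. NG2DsRed+ cells held pericyte and smooth muscle genes (8 genes, 6944 to 14874 CPM) and endothelial genes (7 genes, 1538 to 3551 CPM). They also held the 7 fibroblast genes, which summed to 2677 to 19422 CPM with a median of 8784 CPM. None of these marker genes was at 0 in all libraries of a cell type. The labels S100GFP+ and NG2DsRed+ are used below for sorted fractions and not as names of pure cell types. The part of other cells in the results below was not tested. In sorted bulk RNA, fewer cells of a type and less RNA per cell cannot be told apart.

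Libraries of 1 cell type were not uniform. Over genes outside the 30, the first principal component of the S100GFP+ libraries set 14, 17 and 22 apart, and their endothelial sums were 850 to 2656 CPM against 132 to 203 CPM in the other 5. Among PSC libraries the first component was library 18, whose sum of 5 muscle fibre genes was 1191 CPM against a PSC median of 304 CPM, and the second separated libraries 6, 23 and 31, in which Lars2, Gm23935 and Gm15564 took 31.5% to 36.6% of all counts against 3.64% to 27.7% in the other 6. That share was 19.5% to 39.1% in S100GFP+ and 12.5% to 40.0% in NG2DsRed+ libraries, so the lowest shares were those of PSC libraries. PSC libraries 6, 23 and 31 also had the higher sums of 4 perineurial genes (101 to 125 CPM against 54.1 to 93.2 CPM). In S100GFP+ libraries 14, 17 and 22 the pericyte and smooth muscle sum was higher as well (935 to 1533 CPM against 233 to 807 CPM) and the macrophage sum lower (260 to 537 CPM against 1096 to 2189 CPM). Among NG2DsRed+ libraries the first component loaded highest on 28 (0.61) and 35 (0.49). Their fibroblast sums were 19422 and 15326 CPM, against at most 10999 CPM in the other NG2DsRed+ libraries. Lama2 was 602 and 585 CPM in them against at most 347 CPM, and Lama5 was 92.6 and 95.9 CPM against at least 105 CPM. No fit left out libraries 28 and 35. The part of other cells in the results that rest on such libraries was not tested. Values without the S100GFP+ and PSC libraries named above stand beside those results. Totals were 5221655 to 9592875 counts per library.

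The collagen IV genes are arranged as 3 head-to-head pairs, and the partners Col4a3 and Col4a4 moved in opposite directions while Col4a1 and Col4a2 moved together, so the promoter windows of the pairs are shown first. Each window runs from 250 bases before to 50 bases after the RefSeq start of the gene (GRCm38.p6), 5′ to 3′ on the gene's own strand, with the GC box GGGCGG and the CCAAT box in capitals on either strand (CCGCCC and ATTGG on the other). The window of Col4a3 is not shown.
Col4a1, chr8:11312777-11313076, minus strand: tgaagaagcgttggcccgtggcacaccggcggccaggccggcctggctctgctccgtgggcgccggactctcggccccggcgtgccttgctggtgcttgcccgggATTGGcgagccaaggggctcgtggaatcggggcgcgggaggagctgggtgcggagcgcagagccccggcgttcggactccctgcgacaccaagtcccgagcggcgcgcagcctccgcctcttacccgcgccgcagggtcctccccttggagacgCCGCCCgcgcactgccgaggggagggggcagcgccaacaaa
Col4a2, chr8:11312555-11312854, plus strand: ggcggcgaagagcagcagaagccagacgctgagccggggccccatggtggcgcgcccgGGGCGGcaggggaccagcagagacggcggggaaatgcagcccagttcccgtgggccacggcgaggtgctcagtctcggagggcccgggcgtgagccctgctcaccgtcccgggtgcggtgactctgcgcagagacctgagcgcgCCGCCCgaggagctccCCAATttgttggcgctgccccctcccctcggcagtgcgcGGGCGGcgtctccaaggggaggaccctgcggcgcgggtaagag
Col4a4, chr1:82586800-82587099, minus strand: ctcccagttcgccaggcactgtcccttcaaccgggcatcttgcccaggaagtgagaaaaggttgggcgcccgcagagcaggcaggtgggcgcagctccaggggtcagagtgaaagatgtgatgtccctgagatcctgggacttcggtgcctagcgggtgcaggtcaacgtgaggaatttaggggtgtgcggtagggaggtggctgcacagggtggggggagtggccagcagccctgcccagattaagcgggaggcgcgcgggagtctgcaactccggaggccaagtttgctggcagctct
Col4a5, chrX:141475169-141475468, plus strand: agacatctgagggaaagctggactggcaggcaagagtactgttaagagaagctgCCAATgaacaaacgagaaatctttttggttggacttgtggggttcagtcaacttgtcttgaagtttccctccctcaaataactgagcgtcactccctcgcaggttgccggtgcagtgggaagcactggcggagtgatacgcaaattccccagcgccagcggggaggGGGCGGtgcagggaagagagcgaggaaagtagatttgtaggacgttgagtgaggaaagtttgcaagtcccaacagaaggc
Col4a6, chrX:141474027-141474326, minus strand: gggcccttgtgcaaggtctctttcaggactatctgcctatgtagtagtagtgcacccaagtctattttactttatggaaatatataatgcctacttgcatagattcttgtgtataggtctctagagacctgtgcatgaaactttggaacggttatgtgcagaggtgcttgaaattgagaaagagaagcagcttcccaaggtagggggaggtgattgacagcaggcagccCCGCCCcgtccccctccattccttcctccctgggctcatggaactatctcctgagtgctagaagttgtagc

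The annotated transcripts of Col4a1 and Col4a2 overlapped by 22 bases at their starts, 71 bases lay between the starts of Col4a4 and Col4a3, and 1308 bases lay between those of Col4a6 and Col4a5. The GC content was 74.0% and 73.7% in the Col4a1 and Col4a2 windows, 63.3% in the Col4a4 window, and 52.7% and 48.3% in the Col4a5 and Col4a6 windows, against a median of 52.7% over 32851 windows of the same length. A GC box was present in 35.7% of all windows and a CCAAT box in 37.4%. The Col4a2 window held 3 GC boxes and 1 CCAAT box, the Col4a1 and Col4a5 windows 1 of each, the Col4a6 window 1 GC box, and the Col4a4 window neither. These are matches of letters and not binding sites, and the Col4a1 and Col4a2 windows share part of their sequence. No Col4a3 window was available, so sharing between the windows of Col4a4 and Col4a3 could not be shown. A link between the windows and the levels was not tested.

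Compared with S100GFP+ cells, PSCs had higher levels of 9 members and lower levels of 10. Compared with NG2DsRed+ cells they were higher in 4 and lower in 17. Agrn, Col4a4, Nid2 and Frem1 exceeded both other fractions in PSCs (4 members, 14.3% of those tested, against 13.9% of all genes tested). Lama2, Lama3, Lamb1, Col4a3, Col4a5, Nid1, Smoc1, Ntn4 and Npnt were lower than in both (9 members, 32.1%, against 14.4%). Lama3, Lama5, Lamb2, Col4a1, Col4a2, Hspg2, Col15a1, Smoc2, Ntn4 and Npnt were highest in NG2DsRed+ cells (10 members, 35.7%, against 8.44%), and none was lowest there, against 5.75%. Nid1 and Fras1 were highest in S100GFP+ cells (2 members, against 11.8%), and Col4a1, Col4a2, Nid2, Agrn, Col18a1 and Tinagl1 were lowest there (6 members, against 5.91%). Changes were called at an adjusted p under 0.05 in edgeR's quasi-likelihood test over all genes tested.

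In the comparison of PSCs with S100GFP+ cells 19 of the 28 tested members were called (67.9%), against 47.0% of all genes tested, of which 22.9% were higher and 24.1% lower. In that with NG2DsRed+ cells 21 were called (75.0%), against 44.0%, of which 20.9% were higher and 23.1% lower. Between S100GFP+ and NG2DsRed+ cells 16 were called (57.1%), against 33.3%, with 2 members higher in S100GFP+ cells (background 18.1%) and 14 lower (background 15.2%). The median log2 fold change of the tested members was -0.28 against S100GFP+ cells, where that of all genes was 0.04, and -1.23 against NG2DsRed+ cells, where that of all genes was 0.02. Between S100GFP+ and NG2DsRed+ cells the medians were -0.88 and -0.02. The levels of all libraries of one cell type lay outside the range of the other for 7 tested members between PSCs and S100GFP+ cells (25.0%, against 15.5% of all genes tested), 4 with PSCs above (background 5.24%) and 3 with PSCs below (background 10.3%). Between PSCs and NG2DsRed+ cells this held for 14 (50.0%, against 13.9%), 2 with PSCs above (background 5.08%) and 12 below (background 8.83%). Between S100GFP+ and NG2DsRed+ cells it held for 6 (21.4%, against 11.6%), none with S100GFP+ above (background 7.21%) and 6 below (background 4.38%). The 3 comparisons share libraries and are not independent of each other. The study had placed Agrn and Col4a4 on its own lists of genes in PSCs from these samples, so their direction is not independent evidence. The 30 genes summed to a median of 5341 CPM in PSCs, 4771 CPM in S100GFP+ cells and 11808 CPM in NG2DsRed+ cells.

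**Figure D1:**
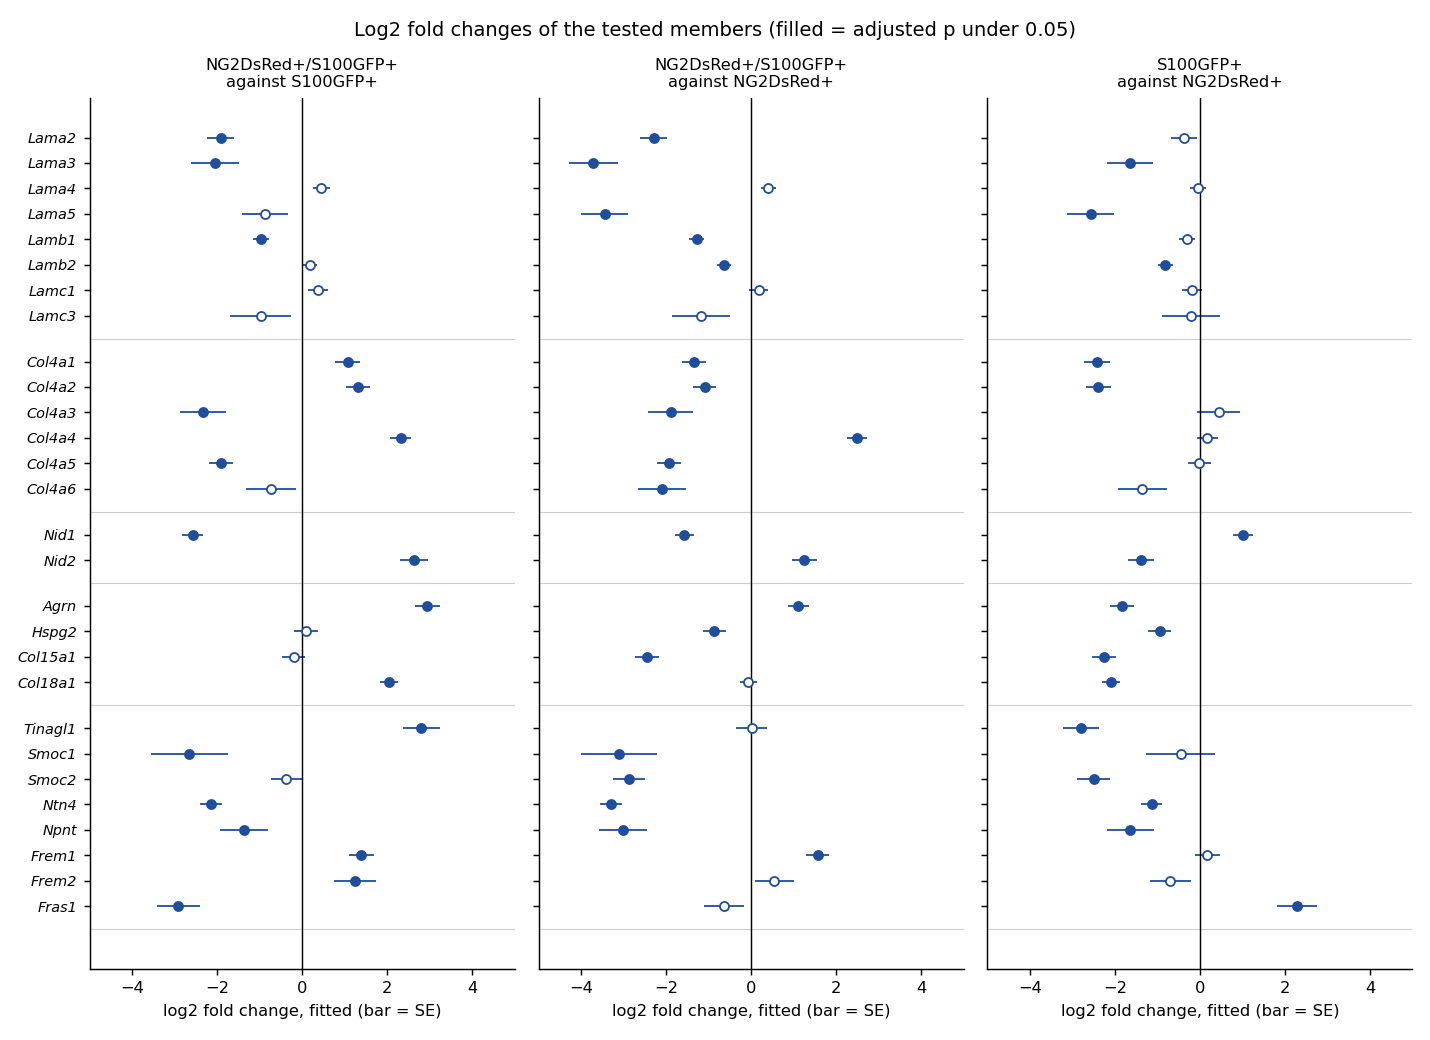
Fitted log2 fold changes of the 28 tested members (horizontal axis, bars are standard errors) in the 3 comparisons, ordered by role. Filled points passed an adjusted p under 0.05. Most points of the middle panel, PSCs against NG2DsRed+ cells, lie left of 0, and Col4a4, Nid2, Agrn and Frem1 lie right of 0 in both PSC panels.

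The laminin alpha chains, which carry the receptor-binding end of the trimer, differed between the cell types in Lama2, Lama3 and Lama5, while Lama4 did not pass the test. Lama2 (laminin α2, the main alpha chain of muscle and Schwann cell basement membranes, chr10:26980036-27619758) ran from 10.3 to 99.4 CPM in PSCs with a median of 70.2, from 133 to 428 CPM in S100GFP+ cells with a median of 237, and from 140 to 602 CPM in NG2DsRed+ cells with a median of 277. All 9 PSC libraries lay below every library of the other cell types, while the other cell types overlapped each other. The log2 fold change of PSCs was -1.92 (SE 0.32, edgeR adjusted p = 1.211e-05) against S100GFP+ cells and -2.29 (SE 0.31, edgeR adjusted p = 6.486e-07) against NG2DsRed+ cells. Lama5, an alpha chain abundant in vessel walls and present at the mature junction, was 0.701 to 32.2 CPM in PSCs (median 12.2), 2.50 to 76.9 CPM in S100GFP+ cells (median 11.5) and 92.6 to 197 CPM in NG2DsRed+ cells (median 158). The NG2DsRed+ libraries were all above the others, and Lama5 was lower by 3.45 on the log2 scale in PSCs (log2 fold change -3.45, SE 0.56, edgeR adjusted p = 8.612e-06).

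Between PSCs and S100GFP+ cells Lama5 did not pass the test (log2 fold change -0.88, SE 0.54, edgeR adjusted p = 0.1882). The value rested on S100GFP+ libraries 14, 17 and 22, where Lama5 was 27.9 to 76.9 CPM against 2.50 to 15.8 CPM in the other 5, and without them it was 0.98 (SE 0.49, edgeR adjusted p = 0.1125). Without PSC libraries 6, 23 and 31 it was -1.49 (edgeR adjusted p = 0.04499). Lama4, the alpha chain of peripheral nerve and capillaries, had the highest mean level per length of the alpha chains in every cell type. It was 188 to 479 CPM in PSCs (median 357), 125 to 422 CPM in S100GFP+ cells (median 284) and 214 to 356 CPM in NG2DsRed+ cells (median 269), with overlap in all comparisons. Its log2 fold change in PSCs was 0.45 (SE 0.19, edgeR adjusted p = 0.05085) against S100GFP+ cells and 0.41 (SE 0.18, edgeR adjusted p = 0.06366) against NG2DsRed+ cells, just outside the threshold, and 188 CPM was the value of PSC library 18. Without that library both were called, at 0.59 (edgeR adjusted p = 0.005501) and 0.57 (edgeR adjusted p = 0.004622), and so they were without S100GFP+ libraries 14, 17 and 22 (0.72, edgeR adjusted p = 0.008057, and 0.44, edgeR adjusted p = 0.03889). Without PSC libraries 6, 23 and 31 they were 0.26 (edgeR adjusted p = 0.3099) and 0.21 (edgeR adjusted p = 0.3948). The call also depended on the method. Against NG2DsRed+ cells Lama4 was called with DESeq2 (0.45, DESeq2 adjusted p = 0.03853), with its size factors and with only the cell types compared. Against S100GFP+ cells it was called with no filter. Both comparisons were called with limma-voom and with a term for the Lars2, Gm23935 and Gm15564 share. The remaining alternatives did not call it. Lama3, an epithelial chain, had medians of 0.765, 2.71 and 15.2 CPM in PSCs, S100GFP+ and NG2DsRed+ cells. It was lower in PSCs than in S100GFP+ cells (log2 fold change -2.06, SE 0.57, edgeR adjusted p = 0.003541), a call that was lost without S100GFP+ libraries 14, 17 and 22 (-0.64, edgeR adjusted p = 0.3763), and lower than in NG2DsRed+ cells (-3.71, SE 0.57, edgeR adjusted p = 3.572e-06). Lama1, the chain of early embryos, reached 0.313 CPM in PSCs and 0.534 CPM in NG2DsRed+ cells, and its highest values, 2.60 and 4.44 CPM, were in S100GFP+ libraries 17 and 22.

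Among the beta chains Lamb1, the general beta chain, was the lower one in PSCs. It was 147 to 212 CPM in PSCs (median 159), 199 to 438 CPM in S100GFP+ cells (median 295) and 242 to 723 CPM in NG2DsRed+ cells (median 358). PSC libraries lay below all NG2DsRed+ libraries, and 8 of the 9 lay below all S100GFP+ libraries. Lamb1 was 1.96-fold lower in PSCs than in S100GFP+ cells (log2 fold change -0.97, SE 0.19, edgeR adjusted p = 9.936e-05) and 2.43-fold lower than in NG2DsRed+ cells (log2 fold change -1.28, SE 0.18, edgeR adjusted p = 1.191e-06). Lamb2, the beta chain concentrated at the synaptic cleft and in vessel walls, was 185 to 254 CPM in PSCs (median 203), 106 to 288 CPM in S100GFP+ cells (median 169) and 286 to 404 CPM in NG2DsRed+ cells (median 321). The PSC range lay inside that of S100GFP+ cells and below that of NG2DsRed+ cells. The log2 fold change was -0.64 against NG2DsRed+ cells (SE 0.16, edgeR adjusted p = 0.001775) and 0.18 against S100GFP+ cells (SE 0.17, edgeR adjusted p = 0.4087), and the latter became a call at 0.66 (edgeR adjusted p = 0.0006281) without S100GFP+ libraries 14, 17 and 22. Lamb3, an epithelial chain that was not tested, was highest in S100GFP+ cells at 0.831 to 10.4 CPM, against at most 0.605 CPM in PSCs and 0.849 CPM in NG2DsRed+ cells.

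Lamc1, the gamma chain of most laminins, made up nearly all gamma chain transcripts. It was 361 to 1029 CPM in PSCs (median 449), 240 to 772 CPM in S100GFP+ cells (median 470) and 404 to 684 CPM in NG2DsRed+ cells (median 582). The ranges overlapped and neither PSC comparison was called (log2 fold changes 0.37, SE 0.24, edgeR adjusted p = 0.2087, and 0.18, SE 0.22, edgeR adjusted p = 0.5473). The PSC libraries were split, with 915 to 1029 CPM in libraries 6, 23 and 31 and 361 to 668 CPM in the other 6. Without these 3 libraries both log2 fold changes changed sign, to -0.09 and -0.29, and with a term for the Lars2, Gm23935 and Gm15564 share Lamc1 was called higher in PSCs than in S100GFP+ cells (0.67, edgeR adjusted p = 0.008054). It was also called without S100GFP+ libraries 14, 17 and 22 (0.74, edgeR adjusted p = 0.02498). Lamc3 stayed at or below 4.21 CPM in every library and was called in no comparison, but without PSC libraries 6, 23 and 31 it was called lower in PSCs than in S100GFP+ cells (-2.21, edgeR adjusted p = 0.01996) and NG2DsRed+ cells (-2.42, edgeR adjusted p = 0.01009).

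Set on the same scale by dividing by exon length, laminin alpha transcripts were mostly Lama4 in PSCs and mixed in the other cells. Lama4 made up 86.0% ± 4.24 of the alpha chain level in PSCs (SD, n = 9), 55.9% ± 6.69 in S100GFP+ cells (SD, n = 8) and 40.2% ± 3.79 in NG2DsRed+ cells (SD, n = 10). The lowest PSC library, at 81.7%, was above the highest of the other libraries, at 67.6%. Lama2 made up 10.6% ± 2.81, 38.0% ± 5.15 and 33.1% ± 10.6 in the same order, and Lama5 3.05% ± 1.82, 4.82% ± 4.89 and 23.9% ± 7.47. The Lama5 share in NG2DsRed+ cells was 14.8% when the longest transcript was taken as the length. Lamb2 made up 67.6% ± 3.05 of the beta chains in PSCs, 47.2% ± 7.82 in S100GFP+ cells and 58.3% ± 8.15 in NG2DsRed+ cells. With the longest transcript as the length the Lamb2 shares were 56.9%, 36.3% and 47.1%, so that only in PSCs did Lamb2 exceed Lamb1 on both lengths. No test was made of the shares.

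**Figure D2:**
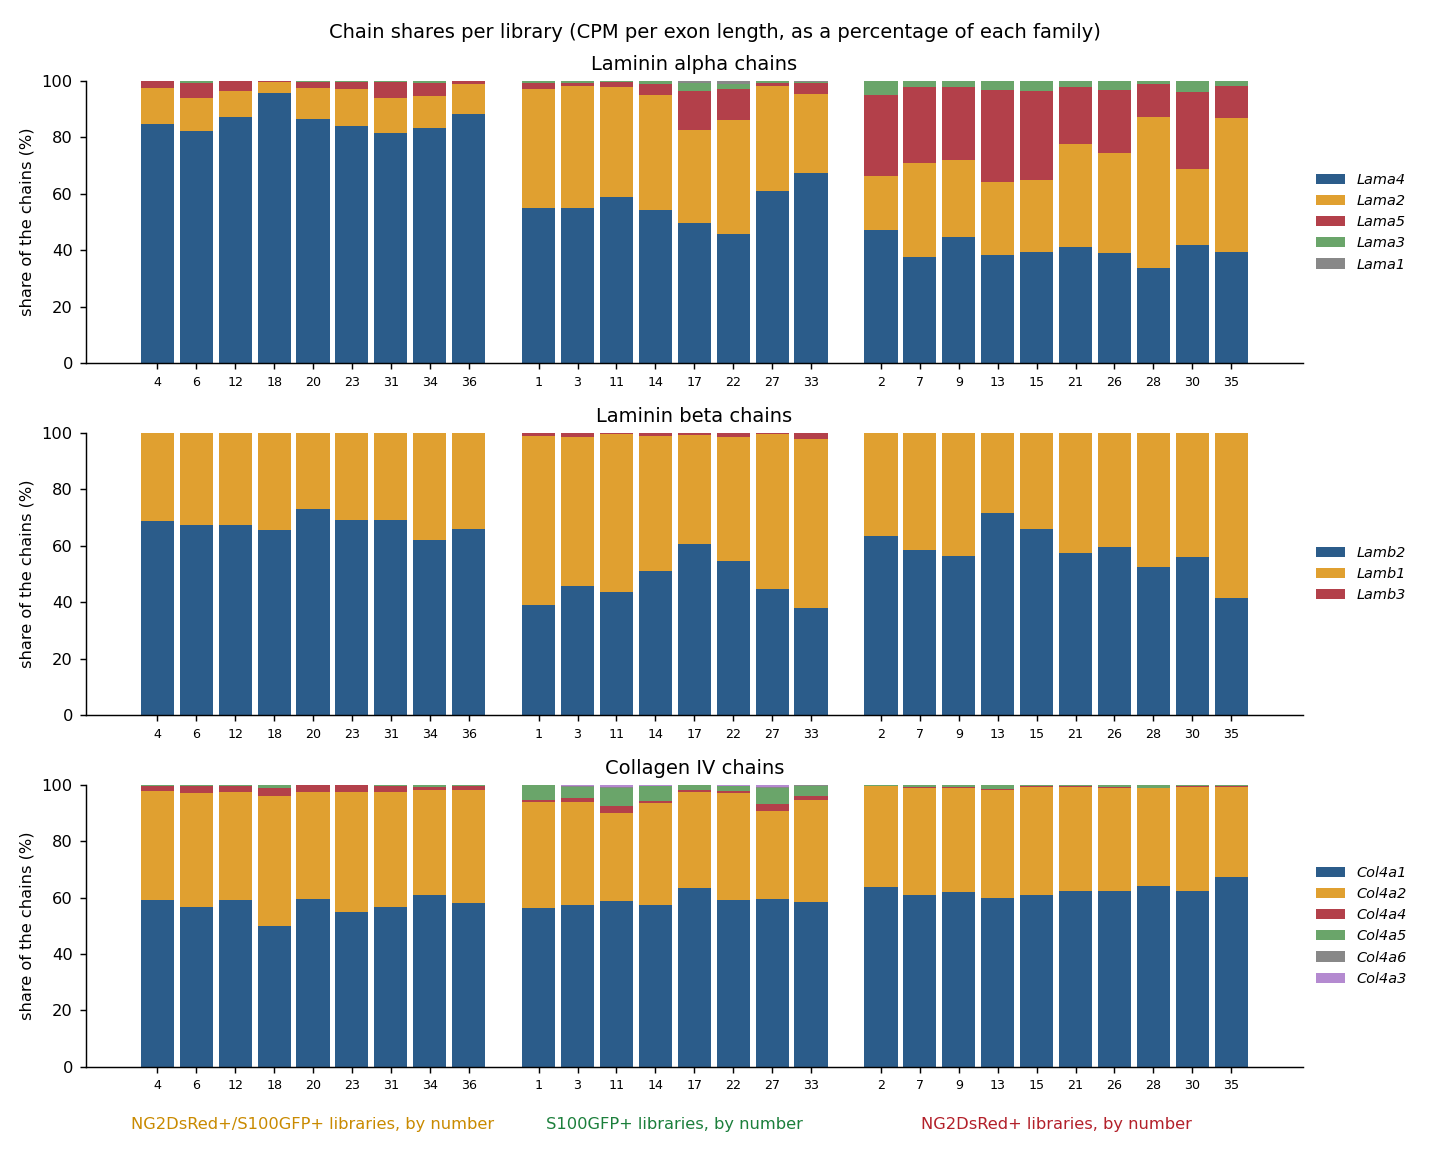
Each bar is 1 library and shows the percentage of each chain in its family, from CPM divided by exon length (vertical axis, 0 to 100%). The 9 PSC libraries hold 81.7% to 95.6% Lama4 among the alpha chains, and the red Lama5 segment is widest in NG2DsRed+ libraries and in S100GFP+ libraries 17 and 22.

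Of the collagen IV genes, Col4a1 and Col4a2, which encode the chains of the common α1α1α2 trimer, were intermediate in PSCs. Col4a1 was 917 to 1821 CPM in PSCs (median 1562), 249 to 1918 CPM in S100GFP+ cells (median 450) and 2998 to 4507 CPM in NG2DsRed+ cells (median 4012). NG2DsRed+ libraries were all above the rest, and PSC and S100GFP+ libraries overlapped through libraries 17 and 22 of the latter. Col4a1 was 2.10-fold higher in PSCs than in S100GFP+ cells (log2 fold change 1.07, SE 0.30, edgeR adjusted p = 0.003646) and 2.54-fold lower than in NG2DsRed+ cells (log2 fold change -1.35, SE 0.28, edgeR adjusted p = 0.0002428). Col4a2 was 754 to 1091 CPM in PSCs (median 954), 142 to 924 CPM in S100GFP+ cells (median 228) and 1525 to 2403 CPM in NG2DsRed+ cells (median 1999), and 5 PSC libraries lay above all S100GFP+ libraries. The log2 fold changes were 1.30 (SE 0.28, edgeR adjusted p = 0.0003778) and -1.09 (SE 0.27, edgeR adjusted p = 0.001304).

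Without S100GFP+ libraries 14, 17 and 22 the log2 fold changes of PSCs against S100GFP+ cells were 2.06 for Col4a1 and 2.30 for Col4a2. In those 3 libraries Col4a1 was 669 to 1918 CPM against 249 to 452 CPM in the other 5, and the endothelial and pericyte sums were also higher in each of them. The length-scaled ratio of Col4a2 to Col4a1 had a median of 0.692 in PSCs, 0.625 in S100GFP+ cells and 0.594 in NG2DsRed+ cells. This ratio differed less between the cell types than the levels did, and a part of the promoters in this was not tested.

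The second pair diverged. Col4a4, one of the chains of the α3α4α5 trimer known from kidney and other specialised basement membranes, was 53.4 to 104 CPM in PSCs (median 82.3), 6.24 to 25.5 CPM in S100GFP+ cells (median 16.8) and 6.10 to 20.5 CPM in NG2DsRed+ cells (median 13.9). Every PSC library was above every other library. Col4a4 was 4.98-fold higher than in S100GFP+ cells (log2 fold change 2.32, SE 0.26, edgeR adjusted p = 1.032e-08) and 5.62-fold higher than in NG2DsRed+ cells (log2 fold change 2.49, SE 0.24, edgeR adjusted p = 7.653e-10). Col4a3, its partner across 71 bases, was lower in PSCs, with a median of 0.730 CPM against 6.78 and 3.77 CPM (log2 fold changes -2.33, SE 0.55, edgeR adjusted p = 0.0008827, and -1.89, SE 0.53, edgeR adjusted p = 0.004226). The length-scaled ratio of Col4a4 to Col4a3 was at least 11.1 in the 8 PSC libraries with a Col4a3 count, with 1 PSC library at 0, and its medians were 3.03 in S100GFP+ and 2.86 in NG2DsRed+ cells.

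Col4a5, the third chain of that trimer, was 2.87 to 17.1 CPM in PSCs (median 9.78), 15.6 to 53.6 CPM in S100GFP+ cells (median 37.7) and 22.6 to 60.2 CPM in NG2DsRed+ cells (median 35.1). PSC libraries were below all NG2DsRed+ libraries, and 7 of them below all S100GFP+ libraries. The log2 fold changes were -1.91 (SE 0.29, edgeR adjusted p = 2.464e-06) and -1.93 (SE 0.28, edgeR adjusted p = 1.47e-06). Its partner Col4a6 was at most 12.6 CPM in any library and was lower in PSCs than in NG2DsRed+ cells (log2 fold change -2.08, SE 0.56, edgeR adjusted p = 0.003299). Col4a4 thus made up 2.15% ± 0.513 of the length-scaled collagen IV level in PSCs (SD, n = 9) and Col4a5 0.421% ± 0.257, while in S100GFP+ cells Col4a4 made up 1.25% ± 0.778 and Col4a5 4.26% ± 1.75 (SD, n = 8).

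The nidogens, which bridge laminin and collagen IV, differed in opposite directions in PSCs, with Nid1 lower and Nid2 higher than in the other cells. Nid1 (chr13:13437551-13512269) was 78.7 to 375 CPM in PSCs (median 293), 942 to 2844 CPM in S100GFP+ cells (median 1480) and 542 to 1137 CPM in NG2DsRed+ cells (median 811). All PSC libraries lay below all others, and library 18 held the lowest value. Nid1 was 5.98-fold lower in PSCs than in S100GFP+ cells (log2 fold change -2.58, SE 0.24, edgeR adjusted p = 4.919e-10) and 2.97-fold lower than in NG2DsRed+ cells (log2 fold change -1.57, SE 0.23, edgeR adjusted p = 1.634e-06). Nid2 (chr14:19751265-19811787) was 88.9 to 435 CPM in PSCs (median 162), 25.2 to 62.9 CPM in S100GFP+ cells (median 32.6) and 53.0 to 162 CPM in NG2DsRed+ cells (median 94.8). All PSC libraries were above all S100GFP+ libraries, and 4 of 9 were above all NG2DsRed+ libraries. Nid2 was 6.21-fold higher than in S100GFP+ cells (log2 fold change 2.63, SE 0.33, edgeR adjusted p = 1.031e-07) and 2.38-fold higher than in NG2DsRed+ cells (log2 fold change 1.25, SE 0.29, edgeR adjusted p = 0.0007753).

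The Nid2 level was 395 to 435 CPM in PSC libraries 6, 23 and 31, and without them the difference from NG2DsRed+ cells was 0.61 on the log2 scale and no longer called (SE 0.26, edgeR adjusted p = 0.05847), while that from S100GFP+ cells was 2.00 (edgeR adjusted p = 1.581e-06). The length-scaled ratio of Nid2 to Nid1 had a median of 1.42 in PSCs (range 0.407 to 2.32), 0.0328 in S100GFP+ cells (range 0.0143 to 0.0570) and 0.175 in NG2DsRed+ cells (range 0.116 to 0.254), and the ranges did not overlap. By the range in PSCs, Nid2 did not exceed Nid1 in every PSC library. No ratio was computed without PSC libraries 6, 23 and 31. Before division by length, the medians of the other 6 PSC libraries were 127 CPM for Nid2 and 262 CPM for Nid1. The PSC median of the ratio therefore leans on those 3 libraries. An exon of Nid2 overlaps Rtraf and an exon of Nid1 overlaps the antisense gene Gm48682, both on the opposite strand. Exons of Lama2, Lama3, Lamc3, Col4a2, Col4a3, Col15a1 and Fras1 also overlap genes on the opposite strand, and Col4a1 and Col4a2 overlap each other. The use of strand in counting is not known, so reads of such partners cannot be told apart.

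**Figure D3:**
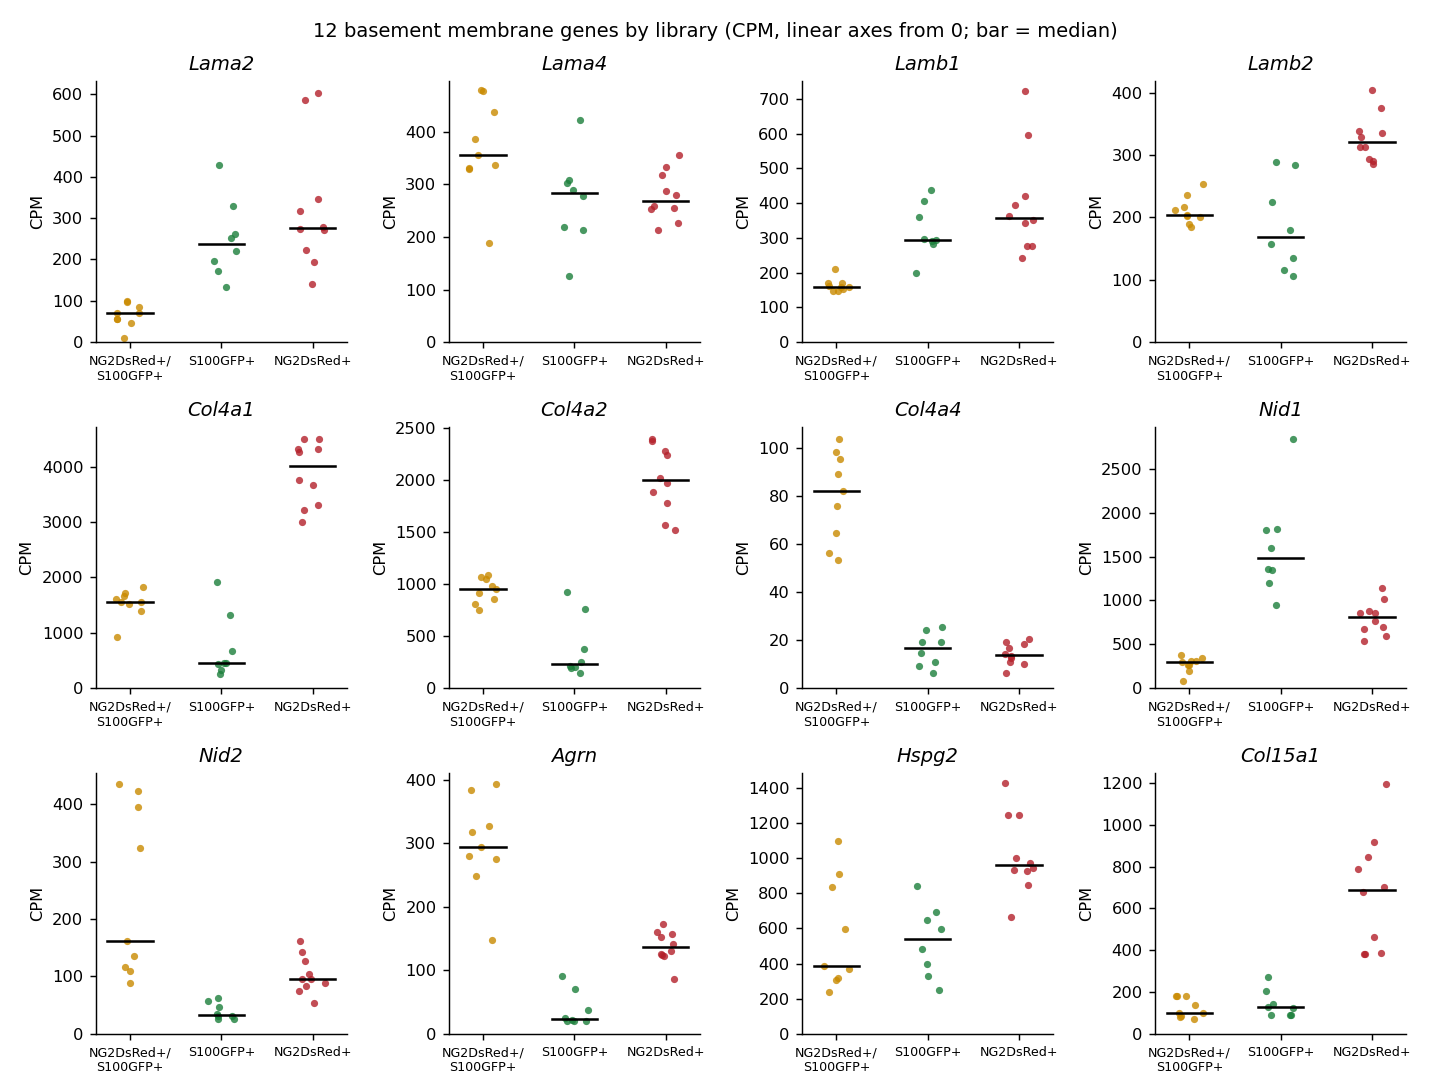
CPM of 12 members in each library (points, linear vertical axes from 0) with the median of each cell type (bar). Col4a4, Agrn and Nid2 are highest in PSCs, Lama2, Lamb1 and Nid1 are lowest there, and Col4a1, Col4a2, Hspg2 and Col15a1 are highest in NG2DsRed+ cells.

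Agrn (agrin, chr4:156165290-156197488) was the heparan sulphate proteoglycan that set PSCs apart. It was 148 to 392 CPM in PSCs (median 293), 20.2 to 91.3 CPM in S100GFP+ cells (median 23.2) and 86.4 to 173 CPM in NG2DsRed+ cells (median 136). All PSC libraries were above all S100GFP+ libraries, and 8 of 9 were above all NG2DsRed+ libraries, with library 18 inside that range. Agrn was 7.72-fold higher than in S100GFP+ cells (log2 fold change 2.95, SE 0.29, edgeR adjusted p = 1.23e-09) and 2.16-fold higher than in NG2DsRed+ cells (log2 fold change 1.11, SE 0.25, edgeR adjusted p = 0.0006282). Without S100GFP+ libraries 14, 17 and 22, whose Agrn levels were 37.2 to 91.3 CPM against 20.2 to 25.3 CPM in the other 5, the log2 fold change was 3.83. Counts per gene do not separate the agrin splice forms that do and do not cluster acetylcholine receptors.

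Hspg2 (perlecan), the other large proteoglycan, was 238 to 1098 CPM in PSCs (median 388), 251 to 840 CPM in S100GFP+ cells (median 539) and 666 to 1429 CPM in NG2DsRed+ cells (median 959). PSC and S100GFP+ libraries covered much the same range. Hspg2 was lower in PSCs than in NG2DsRed+ cells (log2 fold change -0.86, SE 0.27, edgeR adjusted p = 0.009163), and against S100GFP+ cells its log2 fold change was 0.08 (SE 0.28, edgeR adjusted p = 0.8287). The 836 to 1098 CPM of PSC libraries 6, 23 and 31 stood above the 238 to 599 CPM of the other 6. Without them the values were -1.47 (edgeR adjusted p = 2.603e-05) and -0.52 (edgeR adjusted p = 0.085).

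The multiplexin collagens, which carry endostatin-type fragments, differed from each other. Col15a1 was 69.0 to 183 CPM in PSCs (median 98.8), 87.4 to 270 CPM in S100GFP+ cells (median 127) and 382 to 1193 CPM in NG2DsRed+ cells (median 689). NG2DsRed+ libraries were all above the rest, and Col15a1 was 5.46-fold lower in PSCs (log2 fold change -2.45, SE 0.28, edgeR adjusted p = 2.214e-08), while its log2 fold change against S100GFP+ cells was -0.20 (SE 0.27, edgeR adjusted p = 0.5828). Col18a1 was 112 to 180 CPM in PSCs (median 122), 23.7 to 58.6 CPM in S100GFP+ cells (median 32.6) and 83.7 to 235 CPM in NG2DsRed+ cells (median 131). S100GFP+ libraries were all below the rest. Col18a1 was 4.11-fold higher in PSCs than in S100GFP+ cells (log2 fold change 2.04, SE 0.22, edgeR adjusted p = 4.685e-09), and against NG2DsRed+ cells the value was -0.06 (SE 0.19, edgeR adjusted p = 0.8248).

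The remaining members bind to or modify the laminin and collagen networks. Tinagl1, a matricellular protein of vessel walls, was 91.0 to 577 CPM in PSCs (median 326), 11.0 to 121 CPM in S100GFP+ cells (median 28.7) and 171 to 469 CPM in NG2DsRed+ cells (median 328). All but 1 PSC library were above all S100GFP+ libraries, and PSCs and NG2DsRed+ cells overlapped. The log2 fold changes of PSCs were 2.80 (SE 0.43, edgeR adjusted p = 3.15e-06) and 0.01 (SE 0.37, edgeR adjusted p = 0.9822). Without S100GFP+ libraries 14, 17 and 22 the former was 4.01 (edgeR adjusted p = 4.678e-09).

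Ntn4, a laminin-related netrin that can loosen laminin networks, was 4.85 to 17.2 CPM in PSCs (median 8.63), 14.7 to 72.7 CPM in S100GFP+ cells (median 42.8) and 61.2 to 168 CPM in NG2DsRed+ cells (median 86.1). PSC libraries were lowest, with 1 of them reaching into the S100GFP+ range. Ntn4 was 4.45-fold lower in PSCs than in S100GFP+ cells (log2 fold change -2.15, SE 0.26, edgeR adjusted p = 4.892e-08) and 9.80-fold lower than in NG2DsRed+ cells (log2 fold change -3.29, SE 0.26, edgeR adjusted p = 1.802e-11). Smoc2, a calcium-binding matricellular protein, was 27.2 to 80.0 CPM in PSCs (median 47.7), 38.4 to 139 CPM in S100GFP+ cells (median 58.9) and 79.4 to 939 CPM in NG2DsRed+ cells (median 309). It was highest in NG2DsRed+ cells with overlap at the low end (PSC log2 fold change -2.87, SE 0.38, edgeR adjusted p = 3.711e-07), and against S100GFP+ cells the value was -0.37 (SE 0.37, edgeR adjusted p = 0.4362).

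The low members were Smoc1, Npnt, Frem1, Frem2 and Fras1, with means under 20 CPM in every cell type. Frem1, which forms a complex with Fras1 and Frem2 beneath epithelia, was 10.5 to 19.1 CPM in PSCs and was higher than in S100GFP+ cells (log2 fold change 1.39, SE 0.30, edgeR adjusted p = 0.000279) and NG2DsRed+ cells (log2 fold change 1.57, SE 0.28, edgeR adjusted p = 2.741e-05). Its partner Fras1 was lower in PSCs than in S100GFP+ cells and was not called against NG2DsRed+ cells, with medians of 1.10 CPM in PSCs, 5.98 CPM in S100GFP+ cells and 1.67 CPM in NG2DsRed+ cells (log2 fold changes of PSCs -2.91, SE 0.50, edgeR adjusted p = 1.885e-05, and -0.63, edgeR adjusted p = 0.2991). Frem2 was called higher in PSCs than in S100GFP+ cells (log2 fold change 1.24, SE 0.50, edgeR adjusted p = 0.04215), a call that was lost with only the cell types compared (1.23, edgeR adjusted p = 0.08575), without S100GFP+ library 17 (1.19, edgeR adjusted p = 0.06802) and without PSC libraries 6, 23 and 31 (0.78, edgeR adjusted p = 0.2478). Npnt (nephronectin, an integrin ligand) was lower in PSCs than in NG2DsRed+ cells (log2 fold change -3.01, SE 0.56, edgeR adjusted p = 5.989e-05), and its call against S100GFP+ cells (log2 fold change -1.37, SE 0.57, edgeR adjusted p = 0.04685) was lost in 8 of the 11 alternatives, with values of -1.16 to -1.43 in 7 of them and -0.72 without S100GFP+ libraries 14, 17 and 22. Smoc1 was detected in 4 of 9 PSC libraries, at no more than 2.00 CPM.

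In the 3 S100GFP+ libraries with high endothelial sums, 10 of the 28 tested members stood above all 5 other S100GFP+ libraries (35.7%, against 9.89% of all genes tested): Lama2, Lama3, Lama5, Lamb2, Lamc1, Lamc3, Col4a1, Col4a2, Agrn and Tinagl1. In library 17, with an endothelial sum of 2656 CPM, Col4a1 was 1918 CPM and Lama5 76.9 CPM, and in library 14, with a sum of 850 CPM, they were 669 and 27.9 CPM. The part of these cells in the members' levels was not tested. In PSCs the endothelial sum was 124 to 617 CPM. An excess was also seen in PSC libraries 6, 23 and 31, where 9 of the 28 tested members stood above the other 6 (32.1%, against 9.33% of all genes tested). They were Lama2, Lama4, Lamc1, Col4a2, Col4a4, Nid1, Nid2, Hspg2 and Frem2, of which Lamc1, Nid2 and Hspg2 were already known to be high there. The endothelial sums of these 3 libraries were 325 to 617 CPM and overlapped the 124 to 422 CPM of the other 6.

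**Figure D4:**
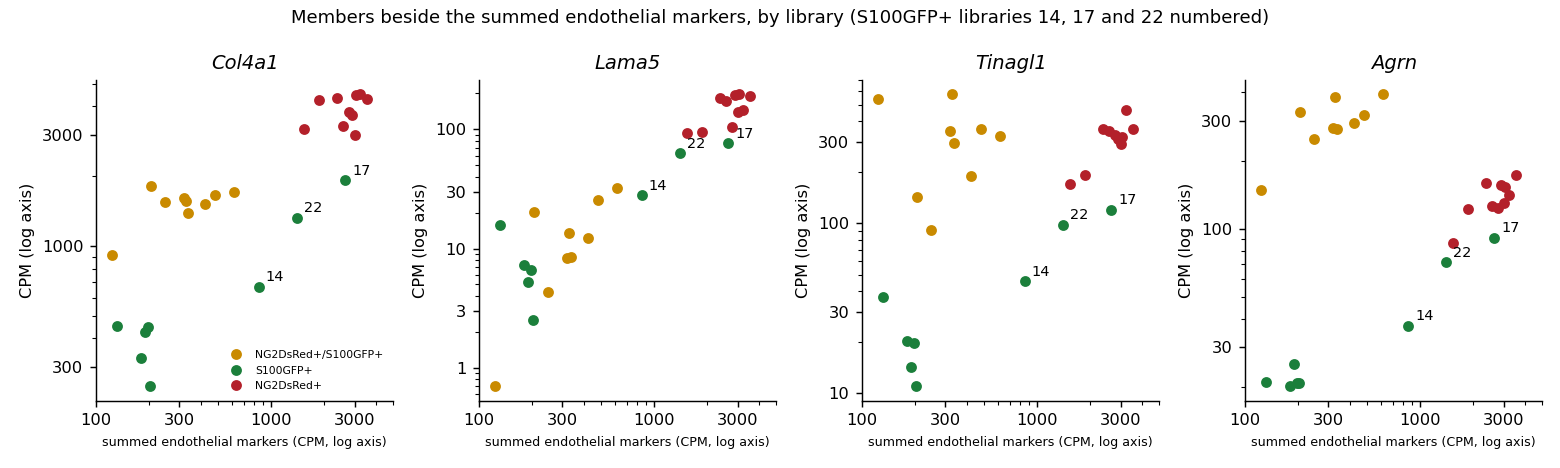
Each point is 1 library, with the summed CPM of 7 endothelial genes on the horizontal axis and the CPM of a member on the vertical axis, both log axes. S100GFP+ libraries 14, 17 and 22 lie to the right of the other 5 and above them for Col4a1, Lama5, Tinagl1 and Agrn, and all PSC points for Agrn lie above the S100GFP+ points.

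Other genes of the pathway were read from 3 further lists. Of 23 other basement membrane genes, 17 were tested, of which 3 were higher and 10 lower in PSCs than in S100GFP+ cells (median log2 fold change -1.29, against 0.04 for all genes), and 1 was higher and 12 lower than in NG2DsRed+ cells (median -1.34, against 0.02). Those called made up 76.5% in each comparison, against 47.0% and 44.0% of all genes tested. Sparc, a collagen-binding matricellular protein, had mean levels of 4938 CPM in PSCs, 8963 CPM in S100GFP+ cells and 6453 CPM in NG2DsRed+ cells, and was lower in PSCs than in S100GFP+ cells (log2 fold change -0.86, edgeR adjusted p = 0.0001429). Ecm1, a matrix protein that binds perlecan, was lower in PSCs than in both, at a mean of 9.84 CPM against 563 and 112 CPM (log2 fold changes -5.84, edgeR adjusted p = 5.677e-15, and -3.52, edgeR adjusted p = 7.214e-12). Fbln2, a fibulin of vessel walls, was lower than in NG2DsRed+ cells only (log2 fold change -0.49, edgeR adjusted p = 0.03183, and -0.29, edgeR adjusted p = 0.2259, against S100GFP+ cells), and the difference between these was not tested. Vwa1, the 1 gene of the list that was higher in PSCs than in NG2DsRed+ cells, was named after its values were seen. This perlecan-binding protein had means of 288, 21.9 and 80.2 CPM in PSCs, S100GFP+ and NG2DsRed+ cells, and every PSC library was above every other library (log2 fold changes 3.72, edgeR adjusted p = 2.129e-12, and 1.84, edgeR adjusted p = 8.858e-08).

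All 20 genes of matrix assembly and crosslinking were tested, and 4 were higher and 9 lower in PSCs than in S100GFP+ cells, with 5 higher and 4 lower than in NG2DsRed+ cells (medians -0.39 and 0.10). The called share was 65.0% against the background of 47.0% in the former comparison, and 45.0% in the latter, near its background of 44.0%. The collagen chaperone Serpinh1 had means of 642, 736 and 559 CPM in PSCs, S100GFP+ and NG2DsRed+ cells and was called in neither PSC comparison (edgeR adjusted p = 0.6024 and 0.591). P4hb, a subunit of prolyl 4-hydroxylase, was lower in PSCs than in S100GFP+ cells (log2 fold change -0.39, edgeR adjusted p = 0.02933). The elastin crosslinking enzyme Loxl1 was lower than in both, at a mean of 9.20 CPM against 348 and 47.4 CPM (log2 fold changes -5.25, edgeR adjusted p = 2.082e-14, and -2.37, edgeR adjusted p = 8.072e-09).

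The receptors went in the other direction against S100GFP+ cells. All 22 were tested, and 14 were higher and 2 lower in PSCs than in S100GFP+ cells (median 0.91), with 8 higher and 8 lower than in NG2DsRed+ cells (median 0.05), which is 72.7% called in each, against 47.0% and 44.0%. Dag1, which encodes dystroglycan, the receptor of laminin, perlecan and agrin, was 2287 to 3656 CPM in PSCs, 175 to 428 CPM in S100GFP+ cells and 301 to 419 CPM in NG2DsRed+ cells. PSC libraries were all above the rest, at 10.6-fold (log2 fold change 3.40, SE 0.17, edgeR adjusted p = 5.305e-15) and 8.16-fold (log2 fold change 3.03, SE 0.16, edgeR adjusted p = 2.676e-15). Itgb1, the common beta subunit of laminin-binding integrins, was higher than in S100GFP+ cells (log2 fold change 0.56, edgeR adjusted p = 0.0008589) and lower than in NG2DsRed+ cells (log2 fold change -0.74, edgeR adjusted p = 1.46e-05). Itga1, a collagen IV receptor subunit, was 6.99-fold higher than in S100GFP+ cells (log2 fold change 2.80, edgeR adjusted p = 3.055e-08), and against NG2DsRed+ cells the value was 0.05 (edgeR adjusted p = 0.9047).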

How the data were processed

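RNA of sorted cells, prepared with an ultra-low-input SMART-Seq v4 kit, was sequenced in 36 labelled libraries, of which 27 had a column in the deposited table and 9 were not analysed here. The authors used ea-utils and Btrim for trimming, HISAT2 for alignment and HTSeq for counting reads per gene, and the deposited values are whole-number counts without normalization. The submitters' processing notes name GRCm38. Tool versions, annotation and strand setting: not given in the sources used here, which leaves counts of overlapping genes open to splitting or merging. Full-length priming of little RNA and the differing share that fell on Lars2, Gm23935 and Gm15564 can shift CPM values between libraries.

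Identifiers were matched to GENCODE M21 (52489 of 52636). Counts were fitted with edgeR 4.0.16 (R 4.3.3): TMM, a minimum count of 10 in filterByExpr, 1 quasi-likelihood fit over 27 libraries and 3 cell types, and Benjamini-Hochberg adjustment over 15330 genes at 0.05. CPM values use TMM library sizes. Levels of different genes were compared only after division by exon length. Alternatives were DESeq2 1.42.0 (the study's own test), DESeq2 size factors, no filter and only the cell types compared. Others were limma 3.58.1 with voom quality weights and a term for the Lars2, Gm23935 and Gm15564 share. Further fits left out S100GFP+ or PSC libraries that stood apart, but no NG2DsRed+ libraries. The fit was tested on simulated data in which few genes changed and every gene had the same spread. There it found large changes but missed most of the smaller ones. Far more genes were called in the real data, so that miss rate does not carry over to them. A member without a call may still differ. No 2 libraries were identical or within counting noise (chi-square per degree of freedom at least 5.68). The study's methods count 1 S100GFP+ library fewer than the deposited table holds without naming it, and all 8 were used. Each replicate was 1 mouse, and no label ties libraries of different cell types to the same mouse. Totals of 5221655 to 9592875 counts limit members under a few CPM.

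The members and lists were chosen with earlier results of these data known. All members are named. The lowest, median and highest CPM are given for the 17 members with a mean of at least 20 CPM in a cell type and at least 1 call, and the 3 genes with the highest mean CPM of each further list are named. The summed level of the Schwann lineage markers is not reported here. Promoter windows came from RefSeq (GRCm38.p6), and 5 of the 6 collagen IV genes had one.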

Additional observations from a re-analysis of the deposited data

Results flagged for a closer look

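Within a cell type, 13 of 84 groups of values (28 tested members in 3 cell types) held 1 library far from the rest by Dixon's criterion, and chance gives about 1 in 20. In PSCs, library 34 was highest for Lamb1 (212 CPM, next 170), library 31 for Lamc3 (3.72 CPM, next 0.806) and Smoc1 (2.00 CPM, next 0.626), library 36 for Col4a3 (4.53 CPM, next 1.63) and library 12 for Col4a6 (4.49 CPM, next 1.82), while library 18 was lowest for Col4a1 (917 CPM, next 1394). In S100GFP+ cells, library 14 was highest for Nid1 (2844 CPM, next 1811), library 33 for Col18a1 (58.6 CPM, next 34.7), and library 22 for Smoc2 (139 CPM, next 67.0), Frem1 (12.5 CPM, next 5.95) and Fras1 (19.3 CPM, next 10.2). In NG2DsRed+ cells, library 28 was highest for Ntn4 (168 CPM, next 110) and library 13 for Npnt (56.1 CPM, next 21.5).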

How the results depend on the processing

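No paired analysis was possible because the library numbers of the cell types are not shared. The fits without S100GFP+ library 17, without PSC library 18, and without PSC libraries 6, 23 and 31 were added after the data were seen. An exclusion that also dropped PSC library 34 had been tried first and was replaced, because its libraries had been picked by the levels of Lamc1, Nid2 and Hspg2. The final choice followed the second component over genes that are no members, but these 3 libraries were already known to be high in the same members. The 19, 21 and 16 called members of the comparisons stayed within 1.5 times in every alternative, and of the counts by direction those of members higher in S100GFP+ than in NG2DsRed+ cells moved from 2 to 4 with DESeq2 and with no filter. Of the other basement membrane genes, those higher in PSCs than in S100GFP+ cells were 5 with voom and 6 without S100GFP+ libraries 14, 17 and 22 (3 as reported), and those higher than in NG2DsRed+ cells were 3 with DESeq2, 3 with no filter and 2 without those libraries (1 as reported). Matrix assembly genes higher in PSCs than in NG2DsRed+ cells were 8 with the Lars2, Gm23935 and Gm15564 term and 3 without PSC libraries 6, 23 and 31 (5 as reported), and receptors lower in PSCs than in S100GFP+ cells were 1 without S100GFP+ libraries 14, 17 and 22 (2 as reported). No called member changed sign. The median log2 fold change of all genes between PSCs and S100GFP+ cells moved from 0.04 to 0.16 without S100GFP+ libraries 14, 17 and 22. The share of higher calls among all calls moved from 54.3% to 64.8% with DESeq2 and 77.4% with no filter between S100GFP+ and NG2DsRed+ cells, and from 48.8% to 23.6% with no filter between PSCs and S100GFP+ cells. Members at a few CPM are limited by counting error.

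Log2 fold changes that changed sign were uncalled as reported. For PSCs against S100GFP+ cells these were Lama5 at 0.24 (voom) and 0.98, Lamc3 at 0.83, Col15a1 at 0.17 and Smoc2 at 0.0444 (without S100GFP+ libraries 14, 17 and 22), and Lamc1 at -0.0942 and Hspg2 at -0.52 (without PSC libraries 6, 23 and 31). Against NG2DsRed+ cells they were Lamc1 at -0.29 and Tinagl1 at -0.24 (without PSC libraries 6, 23 and 31), and Tinagl1 at -0.29 (voom) and -0.0539 (without PSC library 18). For S100GFP+ against NG2DsRed+ cells they were Lama4 at 0.0130 with DESeq2 and 0.0140 with its size factors, Col4a5 at 0.0398 and 0.0403 with these and 0.00897 without PSC library 18, Col4a3 at -0.0889 and Frem1 at -0.0874 (without S100GFP+ libraries 14, 17 and 22), Frem1 at -0.103 (without library 22) and Smoc1 at 0.42 (voom). The cause was not tested.

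Chain shares that moved by more than their SD with no division by length were, in PSCs, Lama2 13.9%, Lamb1 43.7%, Lamb2 56.2%, Col4a2 37.0% and Col4a4 3.17%, in S100GFP+ cells Lama2 45.4%, Lamb1 63.3%, Lamb2 35.8%, Col4a1 61.0% and Col4a2 32.4%, and in NG2DsRed+ cells Lamb1 53.5%, Lamb2 46.4%, Col4a1 65.3%, Col4a2 33.7%, Col4a3 0.0718% and Col4a4 0.249%. With the longest transcript they were Lamb1 43.1% and Lamb2 56.9% in PSCs, Lamb1 62.6%, Lamb2 36.3% and Col4a1 60.9% in S100GFP+ cells, and Lama4 49.2%, Lama5 14.8%, Lamb1 52.9%, Lamb2 47.1%, Col4a1 64.8% and Col4a2 34.3% in NG2DsRed+ cells. None moved by that much without S100GFP+ libraries 14, 17 and 22.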
